A study of Danio rerio with 6 samples.

Results

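The tuba1 genes encode alpha-1 tubulins of the zebrafish (Danio rerio). Members were the rows of the deposited count table whose symbol is tuba1a, tuba1b, tuba1c, tuba1l or tuba1l2, each symbol taken once. Of the 14612 genes of the table, 3 carry such a symbol: tuba1b (NCBI gene 373080), tuba1l2 (573216) and tuba1l (573122). Symbols tuba1a and tuba1c have no row of their own, because the NCBI RefSeq gene table of the GRCz12tu assembly gives tuba1a as the present name of tuba1l2 and tuba1c as that of tuba1l. The 5 symbols therefore stand for 3 genes, and the table's names are used below. The table's own descriptions of these rows (tubulin alpha 1b, alpha 1 like 2 and alpha 1 like) fit the family name.

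Total RNA was sequenced from pools of 33 to 35 whole embryos at 7 days post fertilization (dpf). There were 3 nucleotide pools, held in embryo medium with dissolved nucleotides at 10 µM, and 3 control pools, held in embryo medium without them. The labels name neither the nucleotides nor a strain. They leave unstated whether pools of a group shared a clutch, so each p-value reflects variation among the sequenced pools, which may be technical. In the deposited table the columns of the exposed libraries are headed with carbon monoxide in place of nucleotides; columns were matched to samples by library name, and the agent rests on the labels. Library totals ran from 25792829 to 31556366 counts in nucleotide pools and from 18690465 to 23066970 counts in control pools. All nucleotide libraries were thus deeper than the control libraries, and levels are given both as counts and relative to the library total after TMM scaling.

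Alpha- and beta-tubulin form the dimer from which microtubules are built, the hollow filaments that carry cargo in axons, separate chromosomes and form the core of cilia. Animals hold several alpha-tubulin genes whose proteins are much alike and which are used to different degrees in different tissues. In mammals TUBA1A is the main alpha-tubulin of developing neurons, and in goldfish and zebrafish an alpha-1 tubulin promoter is widely used to mark developing and regenerating neurons. Cells also adjust tubulin message to the pool of free dimer: in mammalian cells the factor TTC5 binds new tubulin chains at the ribosome, and their message is then degraded.

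All 3 tuba1 genes were higher in nucleotide pools than in control pools, by 29.1-fold for tuba1b, 12.5-fold for tuba1l2 and 5.98-fold for tuba1l. Every nucleotide pool stood above every control pool for each of them, as for 11.5% of all tested genes. The tuba1 genes were picked with their change in this same contrast known, so the values are a description and carry no p-value. Because whole embryos were extracted, a change in RNA per cell and a change in the number of expressing cells cannot be told apart. No transcript length or sequence was used, so a count or CPM value (counts divided by the scaled library total and multiplied by 1000000) is read across pools for 1 gene and not as a ranking of the copies by abundance.

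For tuba1b, nucleotide pools 1, 2 and 3 held 879, 620 and 1241 counts, against 29, 10 and 37 counts in control pools 1, 2 and 3. On the scaled level this was 30.7, 25.0 and 43.1 CPM in nucleotide pools, against 1.24, 0.518 and 1.55 CPM in control pools. The gene had few reads in every control pool and many in every nucleotide pool, and the lowest nucleotide pool stood 16.1-fold above the highest control pool. The mean level was 32.9 ± 9.27 CPM in nucleotide pools and 1.1 ± 0.527 CPM in control pools (SD, n = 3 each), a log2 fold change of 4.87 ± 0.348 (SE). The 10 counts of control pool 2 have an exact 95% Poisson interval of 4.8 to 18.4, which covers counting error only, so the size of the tuba1b change rests on few control reads.

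The copy tuba1l2, the present tuba1a, had 2163, 2110 and 3178 counts in nucleotide pools 1, 2 and 3, against 179, 151 and 149 counts in control pools 1, 2 and 3. These correspond to 75.5, 84.9 and 110 CPM in nucleotide pools, against 7.63, 7.83 and 6.22 CPM in control pools. Control pools lay close together, nucleotide pool 3 was the highest of its group, and the lowest nucleotide pool stood 9.64-fold above the highest control pool. The group means were 90.2 ± 18.03 CPM in nucleotide pools and 7.23 ± 0.872 CPM in control pools (SD, n = 3 each), with a log2 fold change of 3.64 ± 0.176 (SE).

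The copy tuba1l, the present tuba1c, had 3799, 3315 and 4868 counts in nucleotide pools 1, 2 and 3, against 593, 432 and 600 counts in control pools 1, 2 and 3. Scaled, these were 133, 133 and 169 CPM in nucleotide pools, against 25.3, 22.4 and 25.1 CPM in control pools. The change was the smallest of the 3 copies and the pools were the least spread, and the lowest nucleotide pool stood 5.25-fold above the highest control pool. Means were 145.0 ± 20.8 CPM in nucleotide pools and 24.2 ± 1.61 CPM in control pools (SD, n = 3 each), a log2 fold change of 2.58 ± 0.128 (SE).

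**Figure D1:**
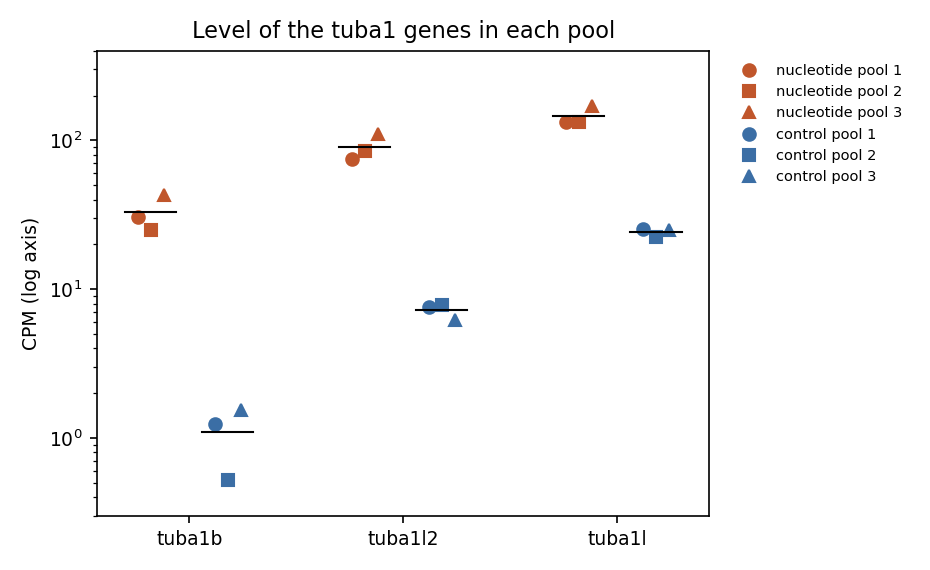
Level of tuba1b, tuba1l2 and tuba1l in CPM on a log axis, with 1 symbol per pool (shape gives the pool number), nucleotide pools in orange to the left of control pools in blue, and a line at each group mean. The groups are separate for each gene, with nucleotide pools above, as for 11.5% of all tested genes. The gap narrows from tuba1b (means of 32.9 and 1.1 CPM in nucleotide and control pools) to tuba1l (145.0 and 24.2 CPM).

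Pool 3 was the highest nucleotide pool for all 3 copies, while no control pool was the highest for all of them. The coefficient of variation over nucleotide pools was 28.2% for tuba1b, 20.0% for tuba1l2 and 14.3% for tuba1l, against 47.9%, 12.1% and 6.63% over control pools in the same order of genes. Same-numbered pools of the 2 groups deviated together across all genes, and the numbers were taken as pairs. Within pairs 1, 2 and 3, nucleotide over control, the fold was 24.8, 48.1 and 27.9 for tuba1b. It was 9.90, 10.9 and 17.7 for tuba1l2, and 5.25, 5.96 and 6.74 for tuba1l. Every pair gave the same order of the copies by fold, with tuba1b above tuba1l2 above tuba1l. The highest tuba1b fold was that of pair 2, whose control pool held only 10 counts. A fit with the pair number as a block gave log2 fold changes of 4.89 ± 0.150, 3.63 ± 0.131 and 2.57 ± 0.0791 (SE) for tuba1b, tuba1l2 and tuba1l.

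Among all 13336 tested genes the log2 fold change of tuba1b ranked 7, that of tuba1l2 ranked 12 and that of tuba1l ranked 17, counted from the largest rise. All 3 were called higher by the edgeR quasi-likelihood test at an adjusted p under 0.05. Of all tested genes 0.937% were called higher and 0.0525% lower, and 11.5% of tested genes had every nucleotide pool above every control pool. The members were known to pass when they were chosen, so nothing is read from that count. In the authors' deposited table the log2 fold changes are 2.58 for tuba1b, 2.79 for tuba1l2 and 2.18 for tuba1l. Those are smaller than the values fitted here for each gene, and they place tuba1l2 and not tuba1b on top. DESeq2 run here on the same counts gave 4.88, 3.65 and 2.58 for tuba1b, tuba1l2 and tuba1l. Why the deposited values differ was not tested.

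Since the copies changed by different amounts, the split of tuba1 reads between them shifted. A share within 1 library does not depend on how libraries are scaled, and a copy's transcript length is the same in every pool. The share of tuba1b in the summed tuba1 counts was 12.8%, 10.3% and 13.4% in nucleotide pools 1, 2 and 3, against 3.62%, 1.69% and 4.71% in control pools. In nucleotide pool 2, the lowest of its group, the exact 95% binomial interval was 9.50% to 11.0%, against 3.34% to 6.43% in control pool 3, the highest of its group. These intervals cover counting error within 1 library only and not the spread between pools. The share of tuba1l2 was 31.6%, 34.9% and 34.2% in nucleotide pools, against 22.3%, 25.5% and 19.0% in control pools. The remainder belonged to tuba1l, which held less of the sum after exposure, with 55.5%, 54.8% and 52.4% in nucleotide pools, against 74.0%, 72.8% and 76.3% in control pools. Nucleotide and control pools did not overlap in any of the 3 shares.

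**Figure D2:**
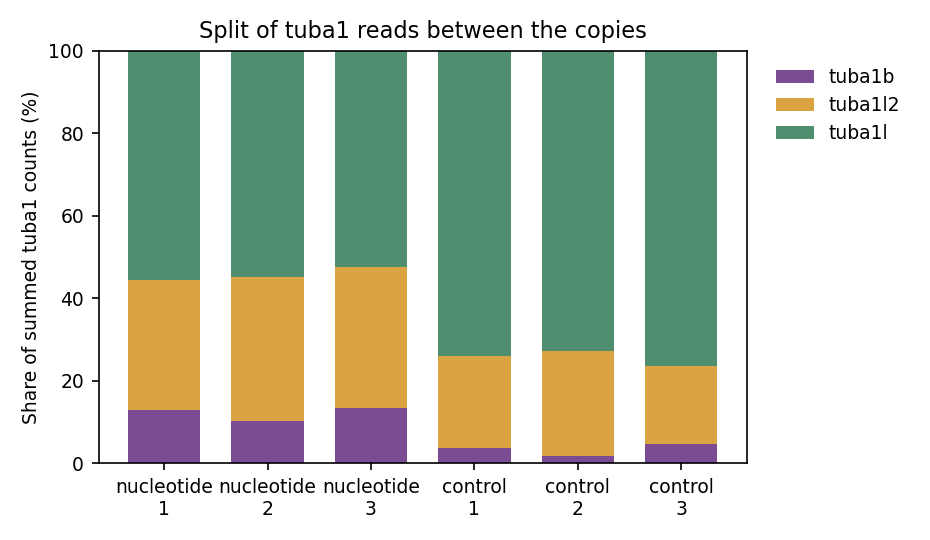
Share of the summed tuba1 counts (percent, stacked to 100) held by tuba1b, tuba1l2 and tuba1l in each pool, nucleotide pools left and control pools right. The tuba1l part averaged 54.3% in nucleotide pools and 74.4% in control pools, and the tuba1b part 12.2% and 3.34%.

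Read ratios between copies show the same shift. For each read of tuba1b there were 3.92 to 5.35 reads of tuba1l in nucleotide pools, against 16.2 to 43.2 in control pools. Reads of tuba1l per read of tuba1l2 numbered 1.53 to 1.76 in nucleotide pools, against 2.86 to 4.03 in control pools. For tuba1l2 over tuba1b the ratio was 2.46 to 3.40 in nucleotide pools, against 4.03 to 15.1 in control pools. The SD of log2 CPM over the 3 copies was 1.01 to 1.25 in nucleotide pools, against 1.98 to 2.69 in control pools, so the copies' read levels lay closer together after exposure.

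The sum over the copies was not constant. Summed tuba1 counts came to 6841, 6045 and 9287 in nucleotide pools 1, 2 and 3, against 801, 593 and 786 in control pools. The summed level was 268 ± 47.1 CPM in nucleotide pools and 32.6 ± 1.72 CPM in control pools (SD, n = 3 each), 8.23 times as high. How reads that match several copies were counted is not given in the sources used here, so the value of any 1 copy is uncertain. A division of reads among the 3 copies alone does not alter this sum.

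The tuba1 genes stand side by side. In the RefSeq gene order of GRCz12tu, tuba1l, tuba1l2 and tuba1b follow each other with no other protein-coding gene between them. Between the first and the last of them lies 1 uncharacterised long non-coding RNA gene, LOC141380531. Of the 3 nearest protein-coding genes on each side, 5 of 6 had a row in the count table. Of these 5, 0 passed the edgeR quasi-likelihood test, against 0.937% of all tested genes that rose and 0.0525% that fell. In DESeq2 or with the replicate block 0 of the 5 passed. An unadjusted p under 0.05 was held by 1 of them, against 1933 of all 13336 tested genes. Next to tuba1l, the melanosome protein gene pmelb had a log2 fold change of 0.27 ± 0.235 (SE, edgeR adjusted p = 0.656). On the other side, next to tuba1b, the junctophilin gene jph2, which ties the surface membrane of muscle cells to their calcium store, had 0.07 ± 0.125 (SE, edgeR adjusted p = 0.857). Values of the other 3 (tmem18, ccnt1 and mfsd5) lay between -0.19 and 0.28. All 5 values were far smaller than those of the tuba1 genes; these neighbours were chosen after the values of the tuba1 genes were seen.

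A further 8 alpha-tubulin genes were tested, from a list written with earlier results of these data known. Of these, 5 rose, 0 fell and 3 did not pass, against 0.937% of all tested genes that rose and 0.0525% that fell. The median log2 fold change of the 8 genes was 1.34, against -0.01 over all tested genes. The calls were tuba8l4 at 2.54 ± 0.176 (SE, edgeR adjusted p = 0.000422), tuba8l5, which has a placeholder symbol in the table, at 2.02 ± 0.256 (0.011), tuba8l at 1.94 ± 0.230 (0.00768), tuba8l3 at 1.25 ± 0.184 (0.021) and tuba2 at 0.99 ± 0.107 (0.00495). Not passing were tuba4l at 1.44 ± 0.394 (edgeR adjusted p = 0.165), tuba8l2 at 1.1 ± 0.200 (0.0556) and tuba7l at 0.23 ± 0.206 (0.663). With the replicate block 7 rose, all but tuba7l, against 10.7% of all tested genes. Without control pool 1 only tuba8l4 passed in edgeR, and tuba8l3 was also lost without control pool 2 or 3 or nucleotide pool 1 or 3 (adjusted p of 0.0739, 0.0792, 0.0668 and 0.0606).

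Of the 5 beta-tubulin genes tested, 4 rose, 0 fell and 1 did not pass, against 0.937% of all tested genes that rose. Their median log2 fold change was 1.57. The largest rise was that of tubb4b at 2.22 ± 0.0991 (SE, edgeR adjusted p = 2.95e-05), followed by zgc:123194, now tubb2b, at 1.75 ± 0.176 (0.00342), tubb5 at 1.57 ± 0.215 (0.0155) and tubb6 at 1.14 ± 0.189 (0.0383). The fifth gene, zgc:153426, now tubb4bl, had 1459, 365 and 2725 counts in nucleotide pools 1, 2 and 3, against 458, 96 and 751 counts in control pools. Its groups overlap, yet each nucleotide pool is above the control pool of the same number, and it did not pass without the replicate block (1.51 ± 0.728, edgeR adjusted p = 0.395) but did with it (1.51 ± 0.0807, adjusted p = 1.61e-07). Calls of tubb4b and tubb2b held with any single pool left out. That of tubb5 was lost in edgeR without control pool 1, 2 or 3 (adjusted p of 0.104, 0.0741 and 0.0623), and that of tubb6 without any single pool other than control pool 2 (0.0865 to 0.199) and under library totals (0.0759).

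With all pools, all 13 of these other alpha- and beta-tubulin genes had a smaller fitted log2 fold change than each tuba1 gene. However, tuba8l4 at 2.54 ± 0.176 (SE) lay within its error of tuba1l at 2.58 ± 0.128. Without nucleotide pool 2, tuba8l4 stood above tuba1l (2.66 against 2.64), and so it did without control pool 2 (2.58 against 2.53). No test of the difference between these genes was made, because the tuba1 genes were chosen on this contrast. Summed over 11 alpha-tubulin genes the level was 1441 ± 137 CPM in nucleotide pools and 449 ± 29.5 CPM in control pools (SD, n = 3 each). The tuba1 copies held 16.9%, 18.4% and 20.3% of these alpha-tubulin counts in nucleotide pools 1, 2 and 3, against 7.25%, 6.67% and 7.91% in control pools. They made up 23.7% of the difference in the alpha-tubulin sum, and tuba1l alone made up 12.2% of that same difference. Among the other alpha-tubulin genes, tuba8l4 alone made up 27.1% of it, more than the tuba1 copies together. Shares of tuba8l2 and tuba8l were also above that of tuba1l. Those of tuba2, tuba8l3, tuba8l5, tuba7l and tuba4l were below it. Without the tuba1 copies the alpha-tubulin sum was 1173 ± 94.8 CPM in nucleotide pools and 416 ± 29.5 CPM in control pools (SD, n = 3 each), 2.82 times as high. Beta-tubulin reads came to 954 ± 120.1 CPM in nucleotide pools and 241 ± 21.9 CPM in control pools (SD, n = 3 each). Alpha over beta reads stood at 1.47 to 1.57 in nucleotide pools, against 1.60 to 2.12 in control pools.

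**Figure D3:**
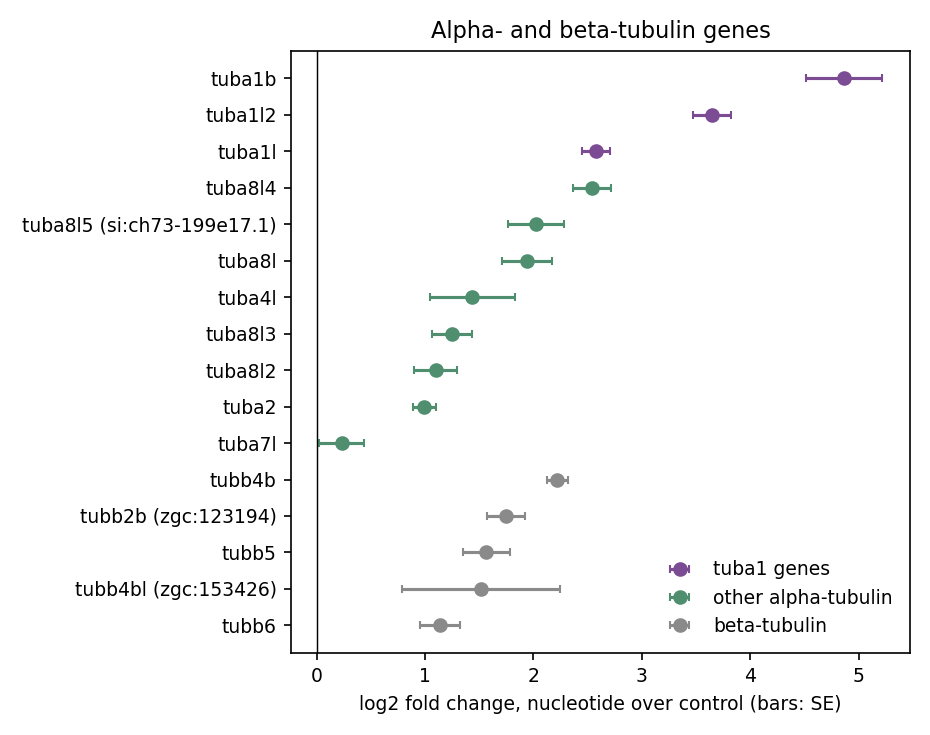
Log2 fold change (nucleotide over control, bars give the SE of the fit) of the 3 tuba1 genes, 8 other alpha-tubulin genes and 5 beta-tubulin genes, with present RefSeq names beside placeholder symbols. All points lie above 0, from 0.23 for tuba7l to 4.87 for tuba1b. The tuba1 genes are the 3 highest in this fit on all pools, with tuba8l4 within its error of tuba1l.

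In the lists examined, genes that assemble, fold, modify or bind tubulin did not pass the edgeR quasi-likelihood test without a block. Some passed with the replicate block, as given below. Without a block 0.937% of all tested genes were called higher and 0.0525% lower, so 0 calls in a short list lie near that share. Of all 13336 tested genes, 1933 had an unadjusted p under 0.05 in the test without a block, in either direction. DESeq2 called 2.99% of all tested genes higher. Of 20 genes for tubulin folding (the TRiC chaperonin, prefoldin and tubulin cofactors), 0 passed, 7 were higher at an unadjusted p under 0.05, and DESeq2 called 1 higher. Their median log2 fold change was 0.16, with the prefoldin genes vbp1 and pfdn6 at 0.43 ± 0.108 and 0.42 ± 0.130 (SE, edgeR adjusted p = 0.135 and 0.2). With the replicate block 6 of the 20 rose, and 0 fell, against 10.7% of all tested genes that rose and 8.38% that fell. Of 9 genes for gamma-, delta- and epsilon-tubulin and the gamma-tubulin complex, which seeds new microtubules, 0 passed. At an unadjusted p under 0.05, 1 was higher and 1 lower, and DESeq2 called 1 higher. The gamma-tubulin gene tubg1 stood at 0.53 ± 0.122 (SE, edgeR adjusted p = 0.106) and rose with the block (adjusted p = 0.000487).

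Of 14 genes for enzymes that modify tubulin chains, 0 passed in edgeR or in DESeq2, against 0.937% of all tested genes that rose in edgeR. At an unadjusted p under 0.05, 1 was higher, against 1933 of all 13336 tested genes in either direction. These include atat1, which acetylates alpha-tubulin, at -0.20 ± 0.105 (SE, edgeR adjusted p = 0.445) and the deacetylase gene sirt2 at 0.27 ± 0.0802 (0.194), which rose with the block (adjusted p = 0.0132). In the list on degradation of tubulin message 5 genes were tested, with 0 passing in edgeR or in DESeq2 and 1 at an unadjusted p under 0.05. That gene was scaper, whose product acts with TTC5 in human cells, at -0.32 ± 0.0888 (SE, edgeR adjusted p = 0.172), and it fell with the block (adjusted p = 0.00599). Among 24 microtubule-associated and plus-end proteins 0 passed, against 0.937% of all tested genes that rose. At an unadjusted p under 0.05, 4 of the 24 were higher and 1 lower. DESeq2 called 1 of them higher, against 2.99% of all tested genes. The largest value was that of the stathmin gene stmn1a, whose product binds free tubulin dimers, at 1.26 ± 0.279 (SE, edgeR adjusted p = 0.0955). With the block 8 of the 24 rose, stmn1a among them, and 1 fell, against 10.7% and 8.38% of all tested genes. Of 10 genes for severing and depolymerising proteins 0 passed in edgeR, in DESeq2 or with the block, and 0 had an unadjusted p under 0.05.

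Cell types rich in tubulin were also examined through their markers. Of 19 tested neuron markers 0 passed in edgeR, against 0.937% of all tested genes that rose. At an unadjusted p under 0.05, 6 were higher and 1 lower, against 1933 of all 13336 tested genes in either direction. DESeq2 called 3 of the neuron markers higher, against 2.99% of all tested genes. The median log2 fold change was 0.02, and between -0.0024 and 0.10 with single pools left out. Their summed level was 3103 to 3296 CPM in nucleotide pools, against 2848 to 2950 CPM in control pools, and 1 of the 20 markers with a row was at 0 in all libraries. The RNA-binding protein genes elavl4 and elavl3, which mark neurons soon after they are born, had 0.37 ± 0.0919 and 0.26 ± 0.0809 (SE, edgeR adjusted p = 0.123 and 0.201). With the replicate block 6 neuron markers rose and 1 fell, against 10.7% and 8.38% of all tested genes. The neuron marker sum was thus separate between the groups as well, and its part in the tuba1 values was not tested.

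The 14 markers of radial glia and neural progenitors had a median log2 fold change of 0.15 (0.08 to 0.29 with single pools left out). Of them 2 rose, 0 fell and 12 did not pass, against 0.937% of all tested genes that rose. The 2 were cyp19a1b, the brain aromatase of radial glia, at 2.96 ± 0.262 (SE, edgeR adjusted p = 0.00171) and the progenitor transcription factor gene sox2 at 0.59 ± 0.0824 (0.0166). The sox2 call was lost under library totals (0.0911) and without any single pool other than nucleotide pool 3 (0.0743 to 0.1). The summed level of the list was 1906 to 2506 CPM in nucleotide pools, against 1893 to 2122 CPM in control pools, and the groups overlapped. Of 17 markers of motile cilia, whose core is built of tubulin, 0 passed in edgeR or in DESeq2. At an unadjusted p under 0.05, 1 was lower, against 1933 of all 13336 tested genes in either direction. Using the block, 0 rose and 1 fell, against 10.7% and 8.38% of all tested genes. Summed cilia markers stood at 132 to 172 CPM in nucleotide pools, against 148 to 162 CPM in control pools.

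Of 28 skeletal muscle markers tested, 2 rose, 0 fell and 26 did not pass, against 0.937% of all tested genes that rose. Their median log2 fold change was 0.38 (0.10 to 0.53 with single pools left out), with the lowest value without nucleotide pool 3. Summed levels were 51820 to 84926 CPM in nucleotide pools, against 41866 to 51172 CPM in control pools, a narrow gap. The 2 that rose were the slow myosin heavy chain genes smyhc3 at 1.03 ± 0.123 (SE, edgeR adjusted p = 0.00771) and smyhc2 at 0.82 ± 0.126 (0.0277). With the block 17 rose, against 10.7% of all tested genes, and DESeq2 called 8 higher, against 2.99% of all tested genes. Without control pool 1 neither gene passed in edgeR (adjusted p of 0.0544 for smyhc3 and 0.176 for smyhc2), and smyhc2 was also lost without nucleotide pool 2 (0.0708), control pool 2 (0.0983) or control pool 3 (0.114). The part of the muscle markers in the tuba1 values was not tested.

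**Figure D4:**
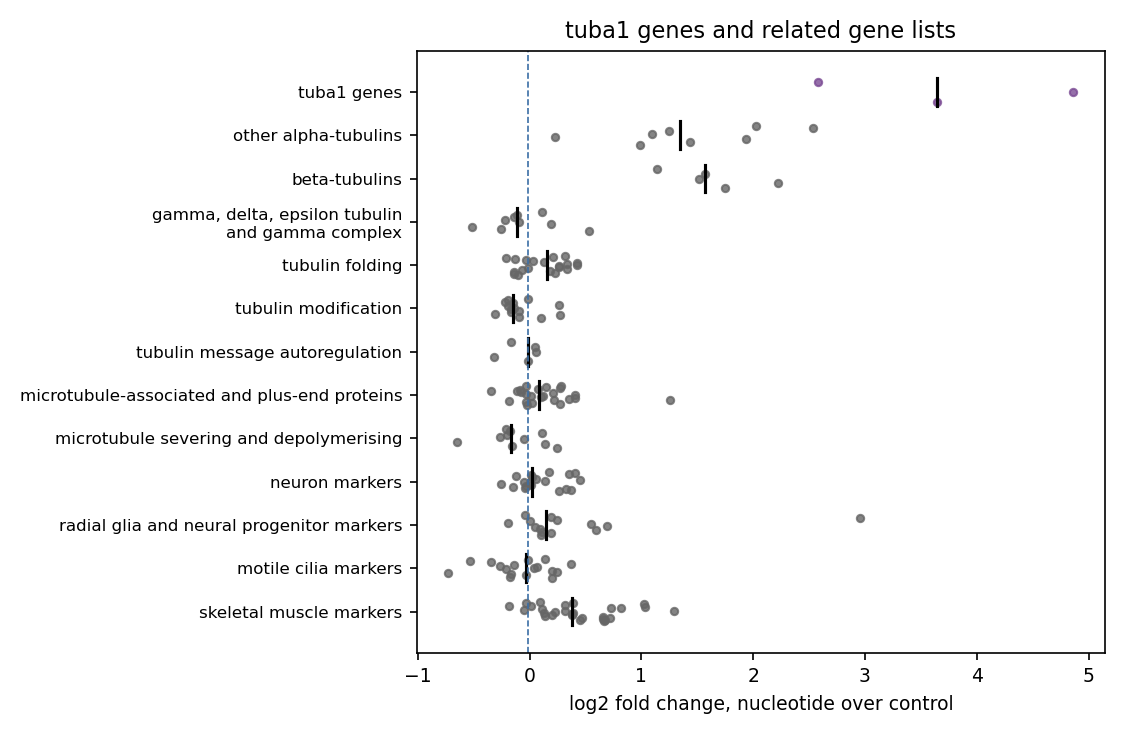
Log2 fold change (nucleotide over control) of each tested gene in the lists described, 1 point per gene, a black bar at each list median and a dashed line at the median of all 13336 tested genes (-0.01). The tuba1 genes and the other alpha- and beta-tubulin genes lie to the right of the line, whereas the medians of the remaining lists lie between -0.17 and 0.38.

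The genes whose profile over the 6 pools was most like that of each copy were found as the smallest root-mean-square difference between log2 CPM profiles, each centred on its own mean. For tuba1b these were actc1b, an actin gene of striated muscle (difference 0.39, Pearson r = 0.989), and rpl38, a ribosomal protein gene (0.62, r = 0.976). For tuba1l2 they were the ribosomal protein genes rps15 (0.23, r = 0.993) and rpl27 (0.26, r = 0.995) and the polyubiquitin gene ubb (0.37, r = 0.991). For tuba1l they were the cytoplasmic actin gene actb2 (0.12, r = 0.999), tuba8l4 (0.15, r = 0.993) and tubb4b (0.21, r = 0.995). Within the family tuba1l2 and tuba1l differed by 0.55 (r = 0.996), tuba1b and tuba1l2 by 0.83 (r = 0.974), and tuba1b and tuba1l by 1.23 (r = 0.990). By the root-mean-square difference, which also counts the size of the change, the genes named for each copy were nearer to it than the other tuba1 copies were. By r this did not hold for tuba1b and tuba1l2, and for tuba1l it held only for actb2. The named genes were picked as the nearest of many tested genes by the root-mean-square difference. Nothing is therefore read from their being nearer by that measure. Copies tuba1b and tuba1l correlated at 0.990, against 0.989 for tuba1b and actc1b. The r of tuba1l2 and tuba1l was above that of tuba1l2 with each of its named genes. It was also above that of tuba1l with tuba8l4 and with tubb4b. All of these profiles share the same 6 libraries and are dominated by the difference between the groups, so they describe the size of that difference more than any covariation between pools.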

How the data were processed

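Per the file headers, the authors deposited 1 table of whole-number counts (reads per gene in each library) and their own comparison, which holds a mean signal (baseMean), a log2 fold change, its standard error and Wald statistic (a score), and a p-value. Of these, the deposited log2 fold changes of the 3 members are printed. Per the submitters' processing notes, the tools were TopHat2, HTSeq and DESeq2 and the build GRCz10, with no role given. How multiply matching reads were counted, and with which annotation and strand setting, is not given in the sources used here.

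From the 14681 rows of counts, 69 that repeat the symbol of an earlier row were left out. Counts were tested with edgeR 4.0.16 in R 4.3.3 (filterByExpr with minimum count 10 and minimum total 15, 13336 genes kept, TMM scaling, quasi-likelihood F test on group, 2-sided, Benjamini-Hochberg over all tested genes, threshold 0.05). SE is the size of the log2 fold change divided by the square root of F. Log2 CPM used a prior count of 2. The procedure was tested on simulated counts drawn without pairs of pools. The check there was on recovered fold changes and not on error rates, so nothing is read from it about calls. Replicate libraries of a group differed by more than sampling noise (chi-square per degree of freedom of 27.8 to 75.2 over genes with at least 50 counts in the pair).

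Residuals from group means correlated at 0.546, 0.625 and 0.617 between same-numbered libraries, above the limit of 0.1 in each pair, so the numbers were taken as pairs. The pairing comes from these counts, since the labels give these numbers no meaning. Values are from the fit without a block unless stated. Alternatives were the replicate block, DESeq2 1.42.0, other scalings, no filter and each pool left out. Of 255 entries in the related lists, 180 matched a row, 170 of them by symbol and the others by the present RefSeq symbol of the gene number. All tested alpha- and beta-tubulins may be named, and in other lists up to 4 members with the smallest p. The 3 most similar genes per copy are named, with a mean of at least 10 counts and no placeholder symbol. Of the genes these rules pick, 2 are not reported here. Members and lists were chosen with earlier results of these data known. No sequence was used.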

Additional observations from a re-analysis of the deposited data

How the results depend on the processing

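Over 11 alternatives (other scalings, no filter, DESeq2, the replicate block and each pool left out) all 33 log2 fold changes of the 3 tuba1 genes moved by less than the spread between pools. Leaving a single pool out of 3 can hardly move a group mean by that much. This limit therefore could not show whether the values depend on single pools, and nothing is read from it for those alternatives. The order of the copies stayed the same under all 11 alternatives. With single pools left out, the log2 fold change ran from 4.56 to 5.18 for tuba1b, from 3.48 to 3.76 for tuba1l2, from 2.46 to 2.65 for tuba1l and from 2.89 to 3.12 for the summed tuba1 level. Under library totals the median log2 fold change of all genes was -0.14 (-0.01 under TMM), and the values were 4.73, 3.51 and 2.45 for tuba1b, tuba1l2 and tuba1l. With no filter their ranks were 9, 21 and 42 of 14135 genes.

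Calls over all genes numbered 132, against 2550 with the replicate block, 497 in DESeq2 and 39 to 80 with single pools left out. Of all tested genes the block called 10.7% higher and 8.38% lower, and DESeq2 called 2.99% higher. The replicate block called 1 gene of the gamma-tubulin list, 6 for tubulin folding, 1 for tubulin modification, 1 on tubulin message, 9 microtubule-associated, 7 neuron, 1 motile cilia and 17 skeletal muscle genes, and DESeq2 called 1 gamma-tubulin list, 1 folding, 1 microtubule-associated, 3 neuron and 8 skeletal muscle genes. Library totals called 1 radial glia gene and split all calls into 86 higher and 18 lower, against 125 and 7. With single pools left out, calls ran from 1 to 5 for other alpha-tubulins, 2 to 3 for beta-tubulins, 1 to 2 for radial glia and 0 to 2 for skeletal muscle. Why these counts differ was not tested. Depth limits the tuba1b fold, which rests on 10 to 37 counts in each control pool.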
